A study of Mus musculus with 57 samples.

Results

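The *Lin28*, *Hmga2* and *Igf2bp* genes encode a group of proteins that are made in the early embryo and decline as tissues mature. The levels of 8 of them, *Lin28a*, *Lin28b*, *Hmga1*, *Hmga2*, *Igf2bp1*, *Igf2bp2*, *Igf2bp3* and *Trim71*, were followed by bulk RNA-seq in mouse embryos with and without *Hoxa5*. The genes were taken by name from the deposited tables, which list 56860 genes, and all 8 were found in both the count and the TPM (transcripts scaled for gene length to a common total per library) tables. The 57 libraries came from 129/Sv wild-type (wt) embryos and from *Hoxa5*-/- mutants carrying a null allele in which a neomycin cassette interrupts the homeobox. The earliest samples were somites, from E10.5 and again from E12.5 (E, embryonic day). Lung was taken at E12.5 and E15.5, trachea and diaphragm at E15.5, and at E18.5 the brown fat between the shoulder blades (iBAT, for interscapular brown adipose tissue). Each genotype had 4 libraries per context, except the mutant somites at E10.5 with 3 and iBAT with 5. The somite samples were trunk segments at the cervico-thoracic level with the neural tube, forelimbs and thoracic organs dissected away. The mutant carries the null allele in every cell, and no library came from a sorted cell type.

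*Lin28a* and *Lin28b* encode RNA-binding proteins that block the maturation of the let-7 microRNAs, and let-7 in turn represses the messenger RNAs of *Lin28a* and *Lin28b*, *Hmga2*, *Trim71* and the *Igf2bp* genes. *Hmga1* and *Hmga2* encode architectural chromatin proteins, the *Igf2bp* genes encode binding proteins that stabilise messenger RNAs of growth genes, and *Trim71* encodes an RNA-binding ubiquitin ligase with a relative among the timing genes of worms. In worms the same circuit orders the larval stages, and in mammals it is known for setting the pace of growth and differentiation.

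The let-7 microRNAs and the sites in the 8 genes that match them are shown first. The mature sequences come from RefSeq (GRCm38.p6), and the capitals mark the seed, bases 2 to 8. All 9 family members listed there, let-7a to let-7g, let-7i and miR-98, carry the same seed, and 3 of them are shown as examples.
mmu-let-7a-5p: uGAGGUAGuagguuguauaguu
mmu-let-7g-5p: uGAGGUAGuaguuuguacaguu
mmu-miR-98-5p: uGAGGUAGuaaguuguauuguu

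The 7 bases that pair with this seed, CTACCTC, were searched on the transcript strand of the canonical 3′ untranslated region (UTR) of each gene in GENCODE vM39 on GRCm39. *Lin28b*, *Hmga2*, *Igf2bp1* and *Trim71* each held 4 matches, *Lin28a* held 2, and *Igf2bp2* and *Igf2bp3* held 1 each. The canonical *Hmga1* 3′ UTR, only 114 bases long, held 0 matches, and 1 was found when the 3′ UTRs of all 17 coding transcripts of *Hmga1*, the longest of 1186 bases, were searched. *Hmga1* lies on the plus strand at chr17:27775471-27782648. Of 21593 canonical 3′ UTRs, 7.67% held a match, and only 11 held 4 or more, of which 4 belonged to the 8 genes. Length bears on such counts, since 28.3% of the 3′ UTRs about as long as that of *Trim71* (5515 bases) held at least 1 match, although 0.238% held as many as 4. As many matches as in *Igf2bp2* and *Igf2bp3* were held by 11.4% and 12.6% of 3′ UTRs of similar length. For *Lin28a*, *Lin28b*, *Hmga2* and *Igf2bp1* these shares were 1.74%, 0.141%, 0.0814% and 0%. For each of the 7 genes with a match 1 site is shown with 8 bases on each side, the match in capitals with the A that follows it in the 8-base form, followed by the other 3 sites of *Hmga2*. These sites all lie in 3′ UTR exons on the minus strand of GRCm39 and are written 5′ to 3′.
*Lin28a* chr4:133732492-133732515: ctgttgaaCTACCTCAtttttgcc
*Lin28b* chr10:45257110-45257133: cgggaagtCTACCTCAtgcaagca
*Igf2bp1* chr11:95852596-95852619: gaagtaaaCTACCTCAaggtgtga
*Igf2bp2* chr16:21878215-21878238: aataaaagCTACCTCAggtgtttt
*Igf2bp3* chr6:49063713-49063736: ttactcaaCTACCTCAggtattca
*Trim71* chr9:114341532-114341555: cctaagtcCTACCTCAgcttaaat
*Hmga2* chr10:120200121-120200144: ttcaatttCTACCTCAgcatcagt
*Hmga2* chr10:120198885-120198907: cctcaataCTACCTCtgaatgct
*Hmga2* chr10:120198447-120198469: gcaaggaaCTACCTCcacacttc
*Hmga2* chr10:120197589-120197611: acacactaCTACCTCttaagtcc
In *Trim71* all 4 matches had the 8-base form. Of 842 3′ UTRs about as long as that of *Trim71*, 0% held as many of this form. At least 1 was held by 2.57% of all 3′ UTRs, whose median length was 746 bases. A match is a description of the sequence, and binding was not measured here. Rows for 11 let-7 hairpins are in the count tables, and they summed to between 0 and 7 reads per library. The mature microRNAs were not measured in these polyA-selected libraries.

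Library totals ran from 18369905 to 72991481 counted reads. *Hoxa5* was lower in the mutants in all 7 contexts, with group means of 48.3 to 275 TPM in wt and 12.2 to 102 TPM in *Hoxa5*-/-, and no mutant library reached the lowest wt library of its context. The labelled tissues held most or all of their listed markers. All 7 lung epithelium markers were at 1 TPM or more in every lung library, as were all 6 skeletal muscle markers in every diaphragm library and all 6 brown fat markers in every iBAT library. Of 6 airway and trachea epithelium markers, 5 were at that level in mutant trachea replicates 1, 2 and 4. Of 7 somite markers, 6 were in mutant somite replicate 2 at E12.5. The lists are not specific, as all 7 lung epithelium markers were also at that level in every trachea library. The diaphragm libraries also held liver transcripts at very different levels, and 1 mutant lung library at E12.5 held far more erythroid transcripts than the others, which is given beside the results they touch. Trachea, lung and diaphragm were sequenced single-end at one centre, somites and iBAT paired-end at another, so that tissue and sequencing cannot be told apart where levels from both are set side by side.

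In lung, the question was how far these genes fell between E12.5 and E15.5. All 8 were lower at E15.5, and 7 passed the quasi-likelihood test of edgeR in wt lung. To pass, a gene needed an adjusted p under 0.05 and a change of 1.5-fold or more. Among 18158 genes tested, 8.81% fell by the same rule. The median log2 fold change of the 8 was -1.54, against 0.00045 for all genes tested. A gene was tested if its TPM averaged 1 or more at either stage. In either genotype *Lin28a* and *Lin28b* averaged under 1 TPM at E15.5. They met this filter only through E12.5 and so could only be lower in mean TPM. With no filter 7 of the 8 were again called lower in wt, where 2002 of 37932 genes fell.

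*Hmga2* was the most abundant of the 8 in early lung. Its 4 wt values at E12.5 were 404, 459.5, 358 and 429.6 TPM, and at E15.5 they were 40.8, 35.9, 22.9 and 45.3 TPM. The ranges lie far apart, with every late library below every early one. *Hmga2* fell 11.6-fold (log2 fold change -3.54 ± 0.23 SE, adjusted p = 7.51e-09, n = 4 per stage, edgeR). The lowest late library, replicate 3, was also the one with the most lung epithelial transcripts, which summed to 9589 TPM over 7 markers, against 4101 to 6893 TPM in the other late wt libraries and 859 to 990 TPM in wt at E12.5. In late *Hoxa5*-/- lung the lowest *Hmga2*, 27.6 TPM, was also in the library with the highest such sum, 9620 TPM. The part of these marker levels in the fall of *Hmga2* was not tested, and in whole tissue fewer cells of a type and less RNA per cell cannot be told apart.

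The *Lin28* genes, the let-7 blockers, were low in lung at both stages. *Lin28b* was measured at 6.62, 7.85, 6.23 and 7.41 TPM in the wt libraries at E12.5, and at 0.947, 0.902, 0.659 and 0.985 TPM at E15.5. The groups did not overlap, and *Lin28b* fell 8.17-fold (log2 fold change -3.03 ± 0.16 SE, adjusted p = 1.4e-09, edgeR). *Lin28a* stood near 1 TPM at E12.5, at 0.935, 1.51, 0.725 and 1.31 TPM. At E15.5 it was listed at 0.105, 0.165, 0 and 0.0324 TPM, which are 5, 7, 0 and 1 reads. *Lin28a* fell by 3.75 on the log2 scale (SE 0.51, adjusted p = 1.69e-05, edgeR), with few late reads behind this value, and by 4.38 without wt replicate 2 at E15.5.

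The *Igf2bp* genes fell by smaller folds and stayed abundant. *Igf2bp1* went from a mean of 118.7 TPM (SD 5.12, n = 4) to 37.9 TPM (SD 5.53, n = 4), *Igf2bp2* from 199 ± 8.44 to 76.6 ± 11.8 TPM and *Igf2bp3* from 59.6 ± 1.90 to 29.6 ± 2.07 TPM (mean ± SD, n = 4). Their log2 fold changes were -1.67, -1.40 and -1.04, with adjusted p values of 7.98e-09, 7.74e-08 and 1.19e-08 (edgeR). The stages did not overlap for any of these genes. Exons of *Igf2bp3* and the opposite-strand gene *Malsu1* overlap over 1529 bases, and whether counting used the strand is not given in the sources used here.

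*Trim71* fell from 9.86, 10.3, 10.3 and 11.7 TPM to 6.06, 5.08, 4.44 and 6.17 TPM, again without overlap (log2 fold change -0.98 ± 0.11 SE, adjusted p = 2.45e-06, edgeR). *Hmga1*, the other architectural chromatin gene, had the smallest fold change of the 8. It was at 154, 168, 164 and 152 TPM in early and at 113, 112, 97.8 and 117 TPM in late lung, which is -0.56 ± 0.08 SE on the log2 scale. Its adjusted p was 1.5e-05 (edgeR) but its fold was 1.48, under the limit of 1.5. Without replicate 4 of either wt stage it passed, at -0.59. Reads of *Hmga1* may be shared with the near copy *Hmga1b*, which held 111 to 6183 reads per library, and those of *Hmga2* with *Hmga2-ps1*, which held 13 to 276.

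**Figure D1:**
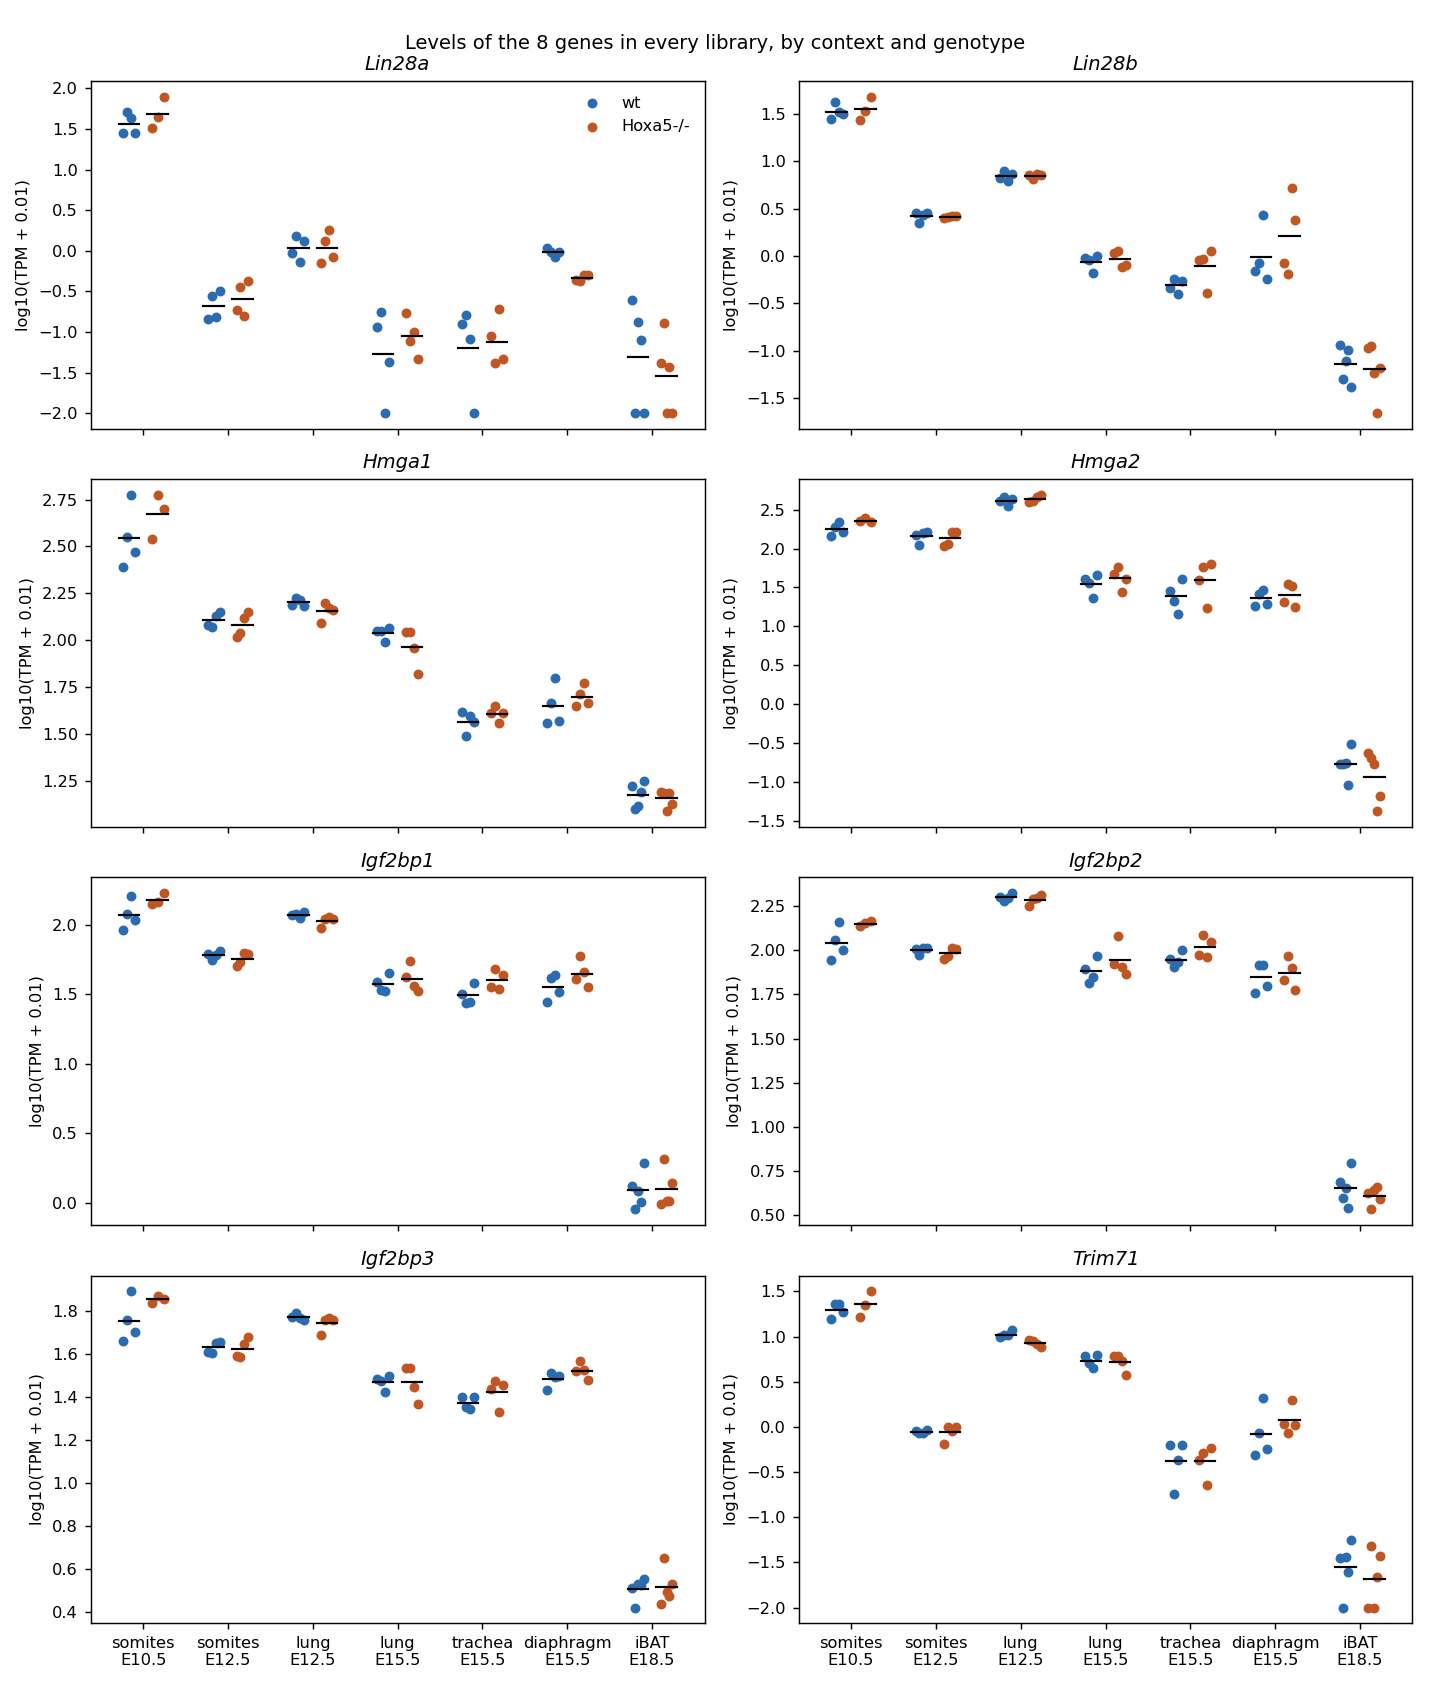
Levels of the 8 genes in every library, as log10(TPM + 0.01) on the vertical axis, by context in order of tissue on the horizontal axis; blue points are wt, orange points *Hoxa5*-/-, and black bars the group means of the plotted values. *Hmga2* stood at 358 to 459.5 TPM in wt lung at E12.5 and at 0.0821 to 0.293 TPM in wt iBAT, and *Lin28a* was highest in the somites at E10.5.

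*Hoxa5*-/- lung gave the same 7 calls between the stages, where 7.67% of 18207 genes fell. *Hmga2* fell from 397, 411, 461 and 489 TPM to 47.5, 58.1, 27.6 and 41.1 TPM (log2 fold change -3.24, SE 0.23, adjusted p = 2.63e-08, edgeR). The log2 fold changes were -2.85 for *Lin28b*, -3.62 for *Lin28a*, -1.29 for *Igf2bp1*, -1.04 for *Igf2bp2*, -0.82 for *Igf2bp3* and -0.62 for *Trim71*, and *Hmga1* was lower by a fold of 1.46. The call of *Trim71* rested on 1 library: without mutant replicate 1 at E12.5, where erythroid markers summed to 142935 TPM against 19763 to 39339 in the other 7 early libraries, its log2 fold change was -0.54. *Hmga1* passed the fold limit when mutant replicate 1 at E15.5 was left out, at -0.59, and with library totals in place of TMM scaling, also at -0.59.

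The decline was numerically less steep in *Hoxa5*-/- lung for all 8 genes, but the differences did not pass the test, and those of *Lin28a* and *Hmga1* changed sign when certain single libraries were left out. The interaction of stage and genotype had its lowest p for *Igf2bp1*, whose log2 fold change differed by 0.37 ± 0.15 SE between the genotypes (unadjusted p = 0.0233, adjusted p = 0.93, edgeR). The test called 0 of the 8, with 4 at an unadjusted p under 0.05, DESeq2 also called 0, and 0.0267% of 18733 genes passed.

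In somites, the fall between E10.5 and E12.5 was followed in the same way. All 8 were lower at E12.5 in wt, and 5 passed the test, where 18.8% of 19773 genes fell. The median log2 fold change of the 8 was -1.32, against -0.039 for all genes. In either genotype *Lin28a* and *Trim71* averaged under 1 TPM at E12.5. They met the filter only through E10.5 and so could only be lower in mean TPM. With no filter 5 of the 8 were again called lower in wt, where 4587 of 41561 genes fell. *Lin28a*, *Trim71* and *Lin28b* led, while *Hmga2*, *Igf2bp2* and *Igf2bp3* did not pass.

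*Lin28a* had its highest values of the series in the somites at E10.5, with 28.2, 50.6, 42.8 and 28.3 TPM in wt. At E12.5 it was at 0.133, 0.266, 0.142 and 0.308 TPM, from 4 to 9 reads per library. The groups lie far apart, and the fitted fall was 181-fold (log2 fold change -7.50 ± 0.40 SE, adjusted p = 1.94e-11, edgeR). *Lin28b* was at 27.9, 42.3, 33.5 and 31.5 TPM at E10.5 and at 2.82, 2.24, 2.73 and 2.86 TPM at E12.5. It fell 13.3-fold (log2 fold change -3.74 ± 0.17 SE, adjusted p = 3.62e-12, edgeR).

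*Trim71* had a larger fold change than *Lin28b* in the somites. Its wt values were 15.52, 23.1, 23.2 and 18.7 TPM at E10.5 and 0.894, 0.839, 0.849 and 0.922 TPM at E12.5, a fall of 23.95-fold (log2 fold change -4.58 ± 0.21 SE, adjusted p = 2.3e-12, edgeR). The difference between lung and somites was not tested, since the tissues were collected at different days and sequenced separately.

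*Hmga1* fell 3.01-fold, from 245, 357, 595 and 297 TPM to 120.0, 117, 134 and 142 TPM (log2 fold change -1.59 ± 0.20 SE, adjusted p = 1.76e-06, edgeR). *Igf2bp1* fell 2.06-fold, from a mean of 120.1 TPM (SD 29.5, n = 4) to 60.7 TPM (SD 3.60, n = 4), with an adjusted p of 3.58e-07 (edgeR). Both were highest in replicate 3 at E10.5, which was also the highest for *Igf2bp2*, *Igf2bp3* and *Hmga2*.

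*Hmga2*, the gene with the steep fall in lung, overlapped between the somite stages. It was at 145, 191, 219.7 and 164 TPM at E10.5 and at 149.9, 109.7, 159 and 162 TPM at E12.5, a log2 fold change of -0.37 ± 0.15 SE (adjusted p = 0.0308, edgeR; fold 1.30). *Igf2bp2* (log2 fold change -0.21, adjusted p = 0.0594) and *Igf2bp3* (-0.49, adjusted p = 0.000713) likewise missed the rule. All of these were under the fold limit, and *Igf2bp2* also missed on the p.

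Markers of other cell types differed between the somite stages as well. All 8 markers of neural tube and neurons were at 1 TPM or more in each library at E10.5, summing to 1101 to 1745 TPM, against 4 of 8 and 448 to 661 TPM at E12.5. Skeletal muscle markers summed to 98.5 to 272 TPM at E10.5 and to 1386 to 1901 TPM at E12.5. The part of these differences in the fall of the *Lin28* genes and *Trim71* was not tested. Neural markers were thus present although the neural tube had been dissected away. The sum alone is not specific, as it was 527 TPM in mutant diaphragm replicate 1, with only 1 of the 8 markers at 1 TPM or more. Within E10.5 the neural sums in order of replicate were 1245, 1101, 1731 and 1417 TPM in wt. *Lin28a* was at 28.2, 50.6, 42.8 and 28.3 TPM in the same libraries. In *Hoxa5*-/- the neural sums were 1745, 1571 and 1300 TPM, and *Lin28a* was at 32.2, 44.4 and 78.8 TPM.

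**Figure D2:**
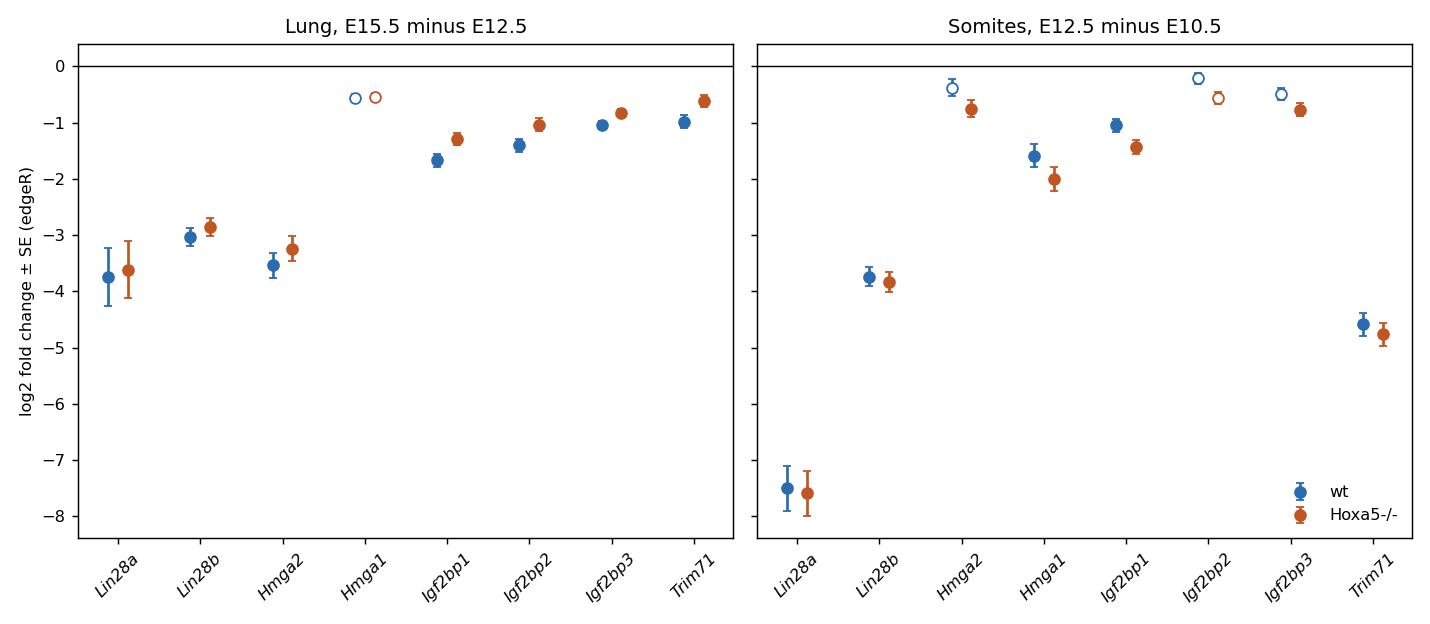
Log2 fold change between stages with its SE (edgeR) for the 8 genes, in lung at the left and in somites at the right, blue for wt and orange for *Hoxa5*-/-; filled points passed an adjusted p under 0.05 and a fold of 1.5. *Hmga2* stood at -3.54 in wt lung and -0.37 in wt somites, and *Trim71* at -0.98 and -4.58.

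In *Hoxa5*-/- somites 7 of the 8 passed, where 15% of 19632 genes fell. The log2 fold changes were -7.59 for *Lin28a*, -4.77 for *Trim71*, -3.83 for *Lin28b*, -2.0 for *Hmga1*, -1.43 for *Igf2bp1*, -0.77 for *Igf2bp3* and -0.75 for *Hmga2*. *Igf2bp2* was lower by a fold of 1.48, with an adjusted p of 0.000112 (edgeR), and passed the fold limit with library totals or a filter of 10 counts, at -0.59 each. It also passed without mutant replicate 1 at E10.5 (-0.60), or 3 or 4 at E12.5 (-0.60 and -0.59). The calls of *Hmga2* and *Igf2bp3* in the mutants and not in wt do not show that the genotypes differ, since the interaction of stage and genotype called 0 of the 8. The interaction terms lay between -0.41 and -0.09, with those of *Lin28a*, *Lin28b* and *Trim71* above 0 without mutant replicate 3 at E10.5, and the lowest p was that of *Igf2bp2* (-0.35 ± 0.14 SE, unadjusted p = 0.0248, adjusted p = 0.327, edgeR). An unadjusted p under 0.05 was reached by 2 of the 8, DESeq2 also called 0, and 0.0147% of 20419 genes passed.

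At E15.5, trachea, lung and diaphragm of wt embryos were compared at one age. *Trim71* separated lung from the other organs. It was at 6.06, 5.08, 4.44 and 6.17 TPM in lung, at 0.623, 0.170, 0.417 and 0.629 TPM in trachea and at 0.479, 0.848, 2.09 and 0.553 TPM in diaphragm, with no overlap with lung. *Trim71* was 12.3-fold lower in trachea (log2 fold change -3.62 ± 0.47 SE, adjusted p = 4.63e-05) and 4.54-fold lower in diaphragm (-2.18 ± 0.43 SE, adjusted p = 0.000889, edgeR). The latter was -2.80 without wt diaphragm replicate 3. *Hmga1* was also lower than in lung, by 3.05-fold in trachea (adjusted p = 2.07e-06) and 1.97-fold in diaphragm (adjusted p = 6.6e-05, edgeR). These were 2 of the 6 genes tested against trachea, where 10.2% of 19340 genes were lower, and the 2 called of the 7 tested against diaphragm, where 36% of 18984 were called in either direction and 2944 of them were lower. *Trim71* averaged under 1 TPM in trachea and in diaphragm. It met the filter only through lung and so could only be lower in mean TPM. With no filter 2 of 8 were called lower in each organ, where 2253 genes were in trachea and 3561 in diaphragm, of 37945.

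*Hmga2* and the *Igf2bp* genes were not called between lung and either other organ. *Igf2bp3* had adjusted p values of 0.000855 and 0.000784 but log2 fold changes of -0.36 in trachea and 0.35 in diaphragm, under the fold limit. *Hmga2* had wt levels of 36.2 ± 9.66 TPM in lung, 26.4 ± 11.4 TPM in trachea and 23.4 ± 5.39 TPM in diaphragm (mean ± SD, n = 4), with overlapping libraries (adjusted p = 0.157 for trachea and 0.32 for diaphragm against lung, edgeR). Without wt trachea replicate 4, at 41.1 TPM, *Hmga2* was called lower in trachea than in lung, at -0.81 (adjusted p = 0.0204). In trachea its lowest library was replicate 3 in each genotype, at 14.5 TPM in wt and 17.1 TPM in *Hoxa5*-/-. The same libraries had the highest sums of airway epithelium markers, 10304 and 6463 TPM, against 1326 to 3368 TPM in the other 6. Mutant replicate 3 differed in other tissues as well. Its skeletal muscle markers summed to 1015 TPM, against 54.8 to 334 TPM in the other trachea libraries. Its cartilage markers summed to 4001 TPM, against 943 to 1665 TPM. The part of these transcripts in *Hmga2* was not tested.

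Between diaphragm and trachea 3 of 6 genes tested were higher in diaphragm, where 15.6% of 19730 genes were higher. They were *Lin28b* (log2 fold change 1.61 ± 0.42 SE, adjusted p = 0.00657), *Igf2bp3* (0.71 ± 0.07 SE, adjusted p = 4.28e-06) and *Hmga1* (0.64 ± 0.14 SE, adjusted p = 0.0022, edgeR). *Lin28b* averaged 1.19 TPM in wt diaphragm and 0.486 TPM in wt trachea. It met the filter of 1 TPM only through diaphragm, so that it could only be higher there in mean TPM. Replicate 3 of wt diaphragm, at 2.69 TPM, brought it over the filter, with the others at most 0.833 TPM. Genes were not filtered anew in the fits without a library. The values of *Lin28b* and *Hmga1* were smaller without wt diaphragm replicate 3. Without it *Lin28b* stood at 0.88 (adjusted p = 0.00505) and *Hmga1* at 0.47, under the fold limit, as it also was at 0.56 without wt trachea replicate 2. With a filter of 10 counts and without diaphragm replicate 3, *Lin28b* was at 0.86 (adjusted p = 0.00535, edgeR). With library totals in place of TMM scaling, which moved the median of all genes to -0.26, only *Lin28b* was called (1.37, adjusted p = 0.0177), with *Igf2bp3* at 0.44 and *Hmga1* at 0.37. *Igf2bp1*, at 0.55 and an adjusted p of 0.00458, was under the fold limit and passed it without wt trachea replicate 4 (0.65) or wt diaphragm replicate 1 (0.63). *Lin28a* was below the filter in both organs. Of the organs at E15.5, diaphragm held the most, at 0.818 to 1.08 TPM in wt against 0 to 0.152 TPM in trachea. With a filter of 10 counts *Lin28a* was called higher in diaphragm (3.71 ± 0.56 SE, adjusted p = 0.000135, edgeR), where 15.6% of 18764 genes were higher.

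The *Lin28b* level of the diaphragm libraries went with their liver transcripts. In wt, *Lin28b* was at 0.681, 0.833, 2.69 and 0.569 TPM, and the hepatocyte markers *Alb*, *Afp*, *Apoa1* and *Ttr* summed to 1595, 1500.3, 8480 and 1844 TPM in the same order. In *Hoxa5*-/- diaphragm *Lin28b* was at 0.837, 0.632, 5.23 and 2.42 TPM, and the sums were 2032, 344, 10444 and 8995 TPM. The 3 libraries with the most *Lin28b* were thus the 3 with the most hepatocyte transcripts, and their erythroid sums, 24692, 28071 and 17203 TPM, were also the highest of the 8. *Trim71* was highest in the replicate 3 libraries, at 2.09 and 1.96 TPM, but stood at 1.05 TPM in mutant replicate 4. The replicate 3 libraries differed in other markers as well. Lung epithelium markers summed to 647 TPM in wt replicate 3, against 88.2 to 147 TPM in the other wt libraries. Cartilage markers summed to 366 TPM in mutant replicate 3, against 15.1 to 22.4 TPM in the other mutant libraries. The part of any of these transcripts in the levels was not tested. Against lung, *Lin28b* was at a log2 fold change of 0.72 in diaphragm (adjusted p = 0.147, edgeR) and at -0.018 without replicate 3. In this comparison too it met the filter of 1 TPM only through diaphragm. In the lung libraries at E15.5 the hepatocyte sums were 4.14 to 446 TPM.

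**Figure D3:**
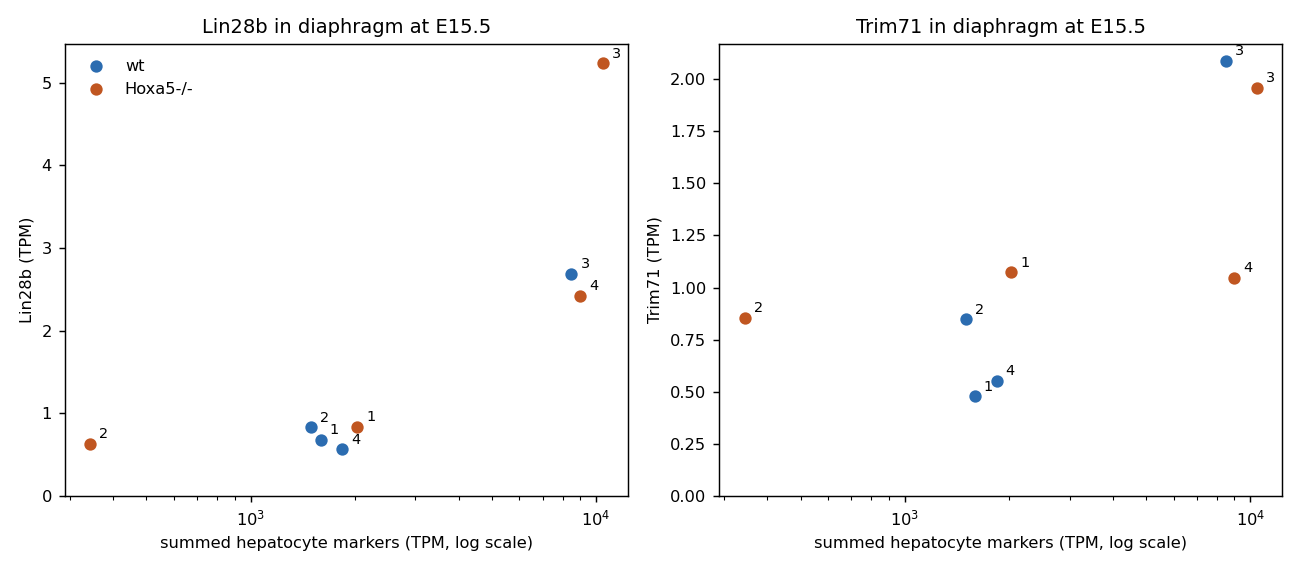
*Lin28b* at the left and *Trim71* at the right, in TPM, against the summed TPM of 4 hepatocyte markers (log scale) in the 8 diaphragm libraries at E15.5, numbered by replicate, blue for wt and orange for *Hoxa5*-/-. The 3 libraries with 8480 TPM or more of hepatocyte markers hold 2.42 to 5.23 TPM of *Lin28b*, and the other 5 hold 0.569 to 0.837 TPM.

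Brown fat near birth held little of most of these transcripts. In wt iBAT *Hmga2* was at 0.0821 to 0.293 TPM (median 0.162, n = 5), from 4 to 14 reads. *Trim71* had at most 3 reads and *Lin28b* at most 8 in any library of either genotype. *Igf2bp1* was at 1.26 ± 0.408 TPM, *Igf2bp3* at 3.23 ± 0.363 TPM, *Igf2bp2* at 4.61 ± 1.07 TPM and *Hmga1* at 15.2 ± 2.23 TPM in wt (mean ± SD, n = 5). Against wt somites at E12.5, all 6 genes tested were lower, where 35.3% of 19369 genes were lower. The log2 fold changes were -8.50 for *Hmga2*, -4.39 for *Igf2bp1*, -4.06 for *Lin28b*, -3.25 for *Igf2bp2*, -2.52 for *Igf2bp3* and -1.88 for *Hmga1* (highest adjusted p = 9.5e-10, edgeR). *Hmga2* and *Lin28b* averaged under 1 TPM in iBAT and met the filter only through the somites, so that they could only be lower in mean TPM. With no filter 7 of 8 were called lower, where 9182 of 38017 genes were. The iBAT and somite groups differ in tissue and in age, which cannot be told apart. The median of all genes was -0.16 in this comparison and -0.80 with library totals in place of TMM scaling.

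Set in order over the 7 wt contexts, the genes peaked in either of a pair of contexts. *Lin28a*, *Lin28b*, *Hmga1*, *Igf2bp1* and *Trim71* were highest in the somites at E10.5, and *Hmga2*, *Igf2bp2* and *Igf2bp3* in lung at E12.5. For *Igf2bp1* and *Igf2bp3* these top contexts overlapped each other, and for the other 6 genes the top context lay above the next with no overlap. *Lin28a* stood 33.4-fold higher in the somites at E10.5 than in the next context, lung at E12.5 (1.12 TPM), which overlapped with diaphragm (0.953 TPM), and the somites at E12.5, iBAT, trachea and lung at E15.5 all lay at or under 0.212 TPM with overlapping neighbours. *Lin28b* stepped down without overlap from 33.8 to 7.03 TPM in lung at E12.5 and 2.66 TPM in the somites at E12.5, then overlapped with diaphragm (1.19 TPM), and diaphragm with lung at E15.5 (0.873 TPM). *Trim71* was next highest in lung at E12.5 (10.6 TPM) and E15.5 (5.44 TPM), above diaphragm (0.992 TPM) and the somites at E12.5 (0.876 TPM), which overlapped. Among trachea, lung and diaphragm at E15.5, neighbours overlapped for *Hmga2*, *Igf2bp1* and *Igf2bp2*. iBAT was lowest for every gene but *Lin28a*, in which it overlapped with trachea and trachea with lung at E15.5. With TMM-scaled RPKM in place of TPM, 44 of 56 positions in these orders were kept and the others were swaps of neighbours, among them lung at E12.5 with the somites at E10.5 for *Igf2bp3* and iBAT with trachea for *Hmga1*.

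Across the 14 group means the *Igf2bp* genes had nearly one pattern. Pearson's r of log2(mean TPM + 1) was 0.997 for *Igf2bp1* and *Igf2bp3*, 0.973 for *Igf2bp1* and *Igf2bp2* and 0.967 for *Igf2bp1* and *Hmga2*. It was 0.909 for *Lin28a* and *Lin28b*, and 0.319 for *Lin28a* and *Igf2bp2*, the lowest of the 28 pairs. These points share tissues, ages and libraries and are no independent samples. Beside each other, *Igf2bp1* was most like *Kpna3* and *Itsn1* and *Igf2bp3* most like *Kpna3* and *Tsr1*. The genes of highest r were *Bloc1s6*, *Dctd* and *Prdm4* for *Igf2bp2*, and *D16Ertd472e*, *Necab2* and *Gcat* for *Hmga2* (r of 0.987 to 0.996). For *Hmga1* they were *Ran*, *Smarca5* and *Set*, and for *Trim71* *Thoc6*, *Naa10* and *Haus3* (r of 0.967 to 0.994). *Lin28a* was most like *BC024139* and the homeobox genes *Cdx1* and *Mnx1*, and *Lin28b* most like *Eif5*, *T* and *Pno1* (r of 0.972 to 0.988). Such likeness was common, with 2878 of 13779 genes at an r of 0.9 or more with *Igf2bp1* and 78 with *Lin28a*.

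Loss of *Hoxa5* itself was then examined in each context, between libraries of one tissue and day. The quasi-likelihood test of edgeR called 0 of the genes tested in each of the 7 contexts, and DESeq2 also called 0 with the same filter. In lung at E12.5, where 0.0798% of 17548 genes were called, the log2 fold changes of *Hoxa5*-/- against wt lay between -0.30 and 0.09 over 8 genes, and 3 had an unadjusted p under 0.05. The lowest was that of *Trim71*, at 9.05, 8.84, 8.22 and 7.73 TPM in *Hoxa5*-/- and 9.86, 10.3, 10.3 and 11.7 TPM in wt. These libraries did not overlap, but the change missed the threshold (log2 fold change -0.30 ± 0.10 SE, unadjusted p = 0.0117, adjusted p = 0.462, edgeR).

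In the somites at E10.5 all 8 genes were numerically higher in *Hoxa5*-/-, by 0.07 to 0.43 on the log2 scale, where 0.0215% of 18573 genes were called. The lowest p was that of *Hmga2*, at 224, 248 and 217 TPM in *Hoxa5*-/- and 145, 191, 219.7 and 164 TPM in wt, overlapping in 1 wt library (log2 fold change 0.31 ± 0.12 SE, unadjusted p = 0.0249, adjusted p = 0.391, edgeR), and 2 of the 8 had an unadjusted p under 0.05. These values moved with single libraries. Without mutant replicate 3, the library highest in *Lin28a*, the log2 fold changes were -0.040 for *Lin28a*, -0.12 for *Trim71* and -0.22 for *Lin28b*. Without wt replicate 3, 377 genes were called in place of 4, and *Igf2bp3* (0.42, adjusted p = 0.0205), *Igf2bp2* (0.42, adjusted p = 0.0277), *Igf2bp1* (0.45, adjusted p = 0.0352) and *Hmga2* (0.39, adjusted p = 0.0404, edgeR) then passed on the p and stayed under the fold limit. At E12.5 the 6 somite genes tested lay between -0.08 and -0.01, where 0.00529% were called, and none had an unadjusted p under 0.05.

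In trachea, where 0.0156% of genes were called, the 5 genes tested lay between 0.14 and 0.74, and the lowest p was that of *Igf2bp1* (log2 fold change 0.36 ± 0.14 SE, unadjusted p = 0.028, adjusted p = 0.736, edgeR), the only one under 0.05 unadjusted. *Hmga2* was the most variable there, at 39.3, 57.4, 17.1 and 62.6 TPM in *Hoxa5*-/- and 28.6, 21.2, 14.5 and 41.1 TPM in wt, and the genotypes overlapped. In lung at E15.5, where 0.124% were called, 6 genes lay between -0.13 and 0.38. Without mutant replicate 4, the lung library lowest in mapped and assigned reads, they lay between -0.10 and 0.28. In iBAT, where 0.00657% were called (1 gene, and 2 with the replicate block), 4 lay between -0.11 and 0.08. In diaphragm, where 0.594% were called, 7 lay between 0.07 and 0.95, with *Lin28b* the highest and its libraries overlapping. *Trim71*, 1 of these 7, averaged 0.992 TPM in wt diaphragm. It met the filter of 1 TPM only through *Hoxa5*-/- and so could only be higher there in mean TPM. *Lin28b* stood at 0.16 without mutant replicate 3 and at 1.71 without wt replicate 3, the library of each genotype with the most hepatocyte transcripts, and the count over all genes ran from 30 to 137 as single libraries were left out, against 107. Hepatocyte sums were 344 to 10444 TPM in *Hoxa5*-/- and 1500.3 to 8480 TPM in wt, and their part in the genotype values was not tested. In these 3 contexts none had an unadjusted p under 0.05.

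*Lin28a* in diaphragm, singled out after its values were seen, did not overlap between the genotypes, and its call depended on the filter. It was at 1.08, 0.944, 0.818 and 0.968 TPM in wt, from 28, 31, 26 and 39 reads, and at 0.430, 0.415, 0.494 and 0.489 TPM in *Hoxa5*-/-, from 17, 22, 19 and 24 reads. Its wt mean of 0.953 TPM was just under the filter of 1 TPM, so that it was not tested by the main rule. With a filter of 10 counts instead, *Lin28a* fell by 1.06 on the log2 scale in the mutant (SE 0.18, adjusted p = 0.037, edgeR), where 0.671% of 18491 genes were lower. With no filter the adjusted p was 0.0758. In the 10-count fit the adjusted p was 0.0192 with DESeq2, and it was 0.0408 without wt replicate 3 and 0.0685 to 0.128 when any other library was left out. It was 0.0446 with a replicate block. Without replicate 3 of both genotypes it was 0.0892, at -1.17. The mutant libraries with the most hepatocyte transcripts, replicates 3 and 4, held the higher *Lin28a* values of that genotype, and the wt library with the most, replicate 3, held the lowest of the wt. The part of these transcripts in the *Lin28a* values was not tested.

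**Figure D4:**
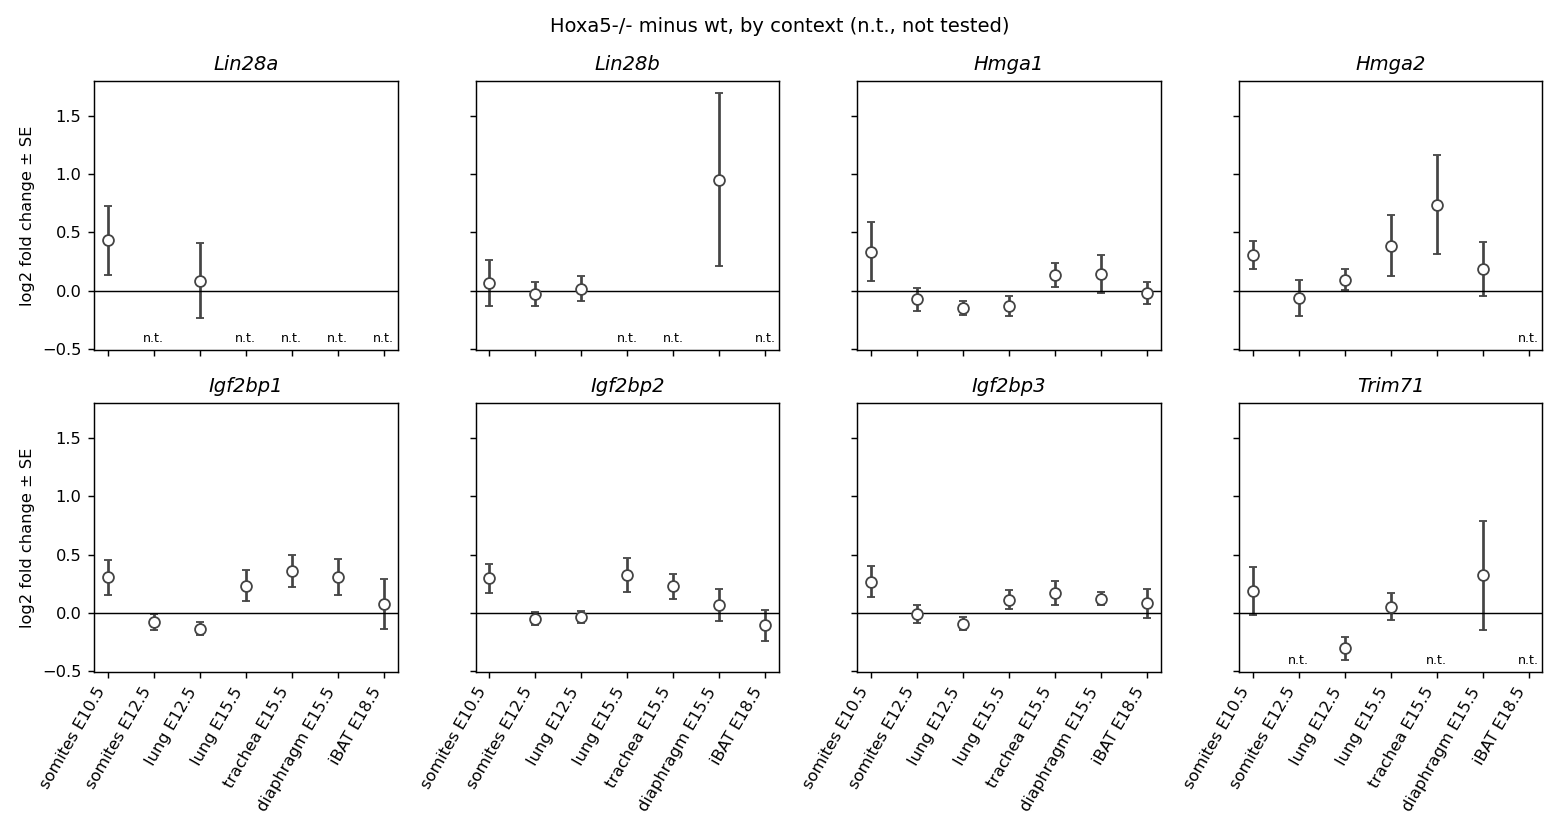
Log2 fold change of *Hoxa5*-/- against wt with its SE (edgeR) for the 8 genes in the 7 contexts; open points did not pass an adjusted p under 0.05 and a fold of 1.5, and n.t. marks genes under the filter of a mean of 1 TPM. All points are open, and the widest errors are those of *Lin28b* and *Trim71* in diaphragm and *Hmga2* in trachea.

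The rest of the let-7 pathway was read from gene lists. Of 20 reported let-7 targets outside the 8 genes, 11 fell and 0 rose in wt lung between the stages (median log2 fold change -0.65). The largest falls were those of *Prtg*, a cell-surface protein of the early embryo (-1.75 ± 0.22 SE, adjusted p = 9.14e-06), and of the DNA-binding proteins *Arid3b* (-1.44 ± 0.13 SE, adjusted p = 2.65e-07) and *Arid3a* (-1.0 ± 0.07 SE, adjusted p = 2e-08, edgeR). In wt somites 6 fell and 2 rose (median -0.45). The log2 fold changes were -3.81 for *Prtg*, -2.68 for the orphan nuclear receptor *Nr6a1* and -1.85 for *Arid3b*, while those of the cell-cycle kinase *Cdk6* and the growth regulator *Myc* were 0.88 and 0.76. Of all genes tested 8.81% fell in lung and 18.8% in somites. In *Hoxa5*-/- 9 fell and 0 rose in each tissue.

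**Figure D5:**
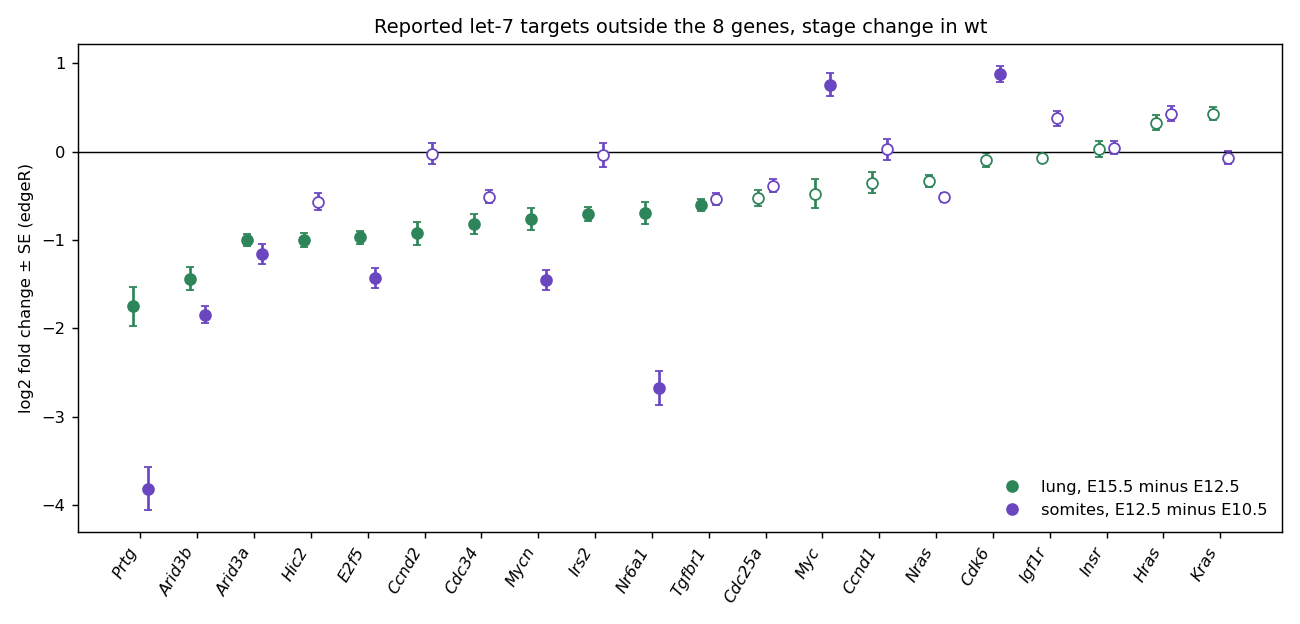
Log2 fold change between stages with its SE (edgeR) in wt for 20 reported let-7 targets outside the 8 genes, green for lung and purple for somites, in the order of the lung values; filled points passed an adjusted p under 0.05 and a fold of 1.5. *Prtg* is lowest in both, at -1.75 in lung and -3.81 in somites, and *Cdk6* and *Myc* stand above 0 in somites.

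Of 16 genes that process or destroy let-7, 1 rose and 1 fell in wt lung, where 24.3% of all genes tested were called in either direction and 2820 of the 18158 rose. The Argonaute gene *Ago4* rose (log2 fold change 1.60 ± 0.18 SE, adjusted p = 1.86e-06) and *Tut4*, which tails the let-7 precursor held by LIN28A, fell (-0.62 ± 0.08 SE, adjusted p = 5.2e-06, edgeR). In wt somites, where 18.8% of all genes fell, 2 of the 16 fell, the Argonaute gene *Ago1* (-1.22) and the splicing factor *Hnrnpa1* (-1.0). Of the let-7 host transcripts 2 of 3 were tested, and *Mir100hg* fell by 2.06 in lung (adjusted p = 0.00167) and rose by 0.96 in somites (adjusted p = 0.000828, edgeR).

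Genes reported as targets of the 8 proteins moved in both directions in lung. Of 6 tested 4 were called, against the 24.3% of all genes, and 3 rose, *Cd44* (1.75), *Egr1* (1.29) and *Cdkn1a* (1.07, log2 fold changes), and *Igf2*, the growth factor whose messenger RNA the *Igf2bp* proteins are named for, fell by 0.91 (adjusted p = 1.04e-05, edgeR). In somites *Igf2* rose instead by 2.64 (adjusted p = 1.02e-09), and 5 of 6 rose, where 24.3% of all genes rose, with *Egr1* (2.87) and *Cd44* (2.67) the largest. Of 8 proliferation markers 1 rose and 0 fell in lung, a share near that of the 2820 rises among 18158 genes, *Mki67* at 0.68 ± 0.26 SE (adjusted p = 0.0404, edgeR). In somites, where 18.8% of all genes fell, all 8 fell, with log2 fold changes from -1.41 for *Ccnb1* to -0.66 for *Mki67*. Their medians were -0.04 in lung and -0.86 in somites, beside -1.54 and -1.32 for the 8 genes.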

How the data were processed

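Bulk polyA RNA-seq of 57 libraries was used, assigned to tissue, stage, genotype and replicate from the deposited labels. For the alignment to GRCm39 the authors used STAR 2.7.9a after adapter removal by Trim Galore 0.6.5, and featureCounts 2.0.3 gave the gene counts. The deposited counts are whole reads per gene without normalization, and the deposited TPM values express the same reads per exon length, at a common total per library, as the authors computed them. Reads were single-end of 100 bases for trachea, lung and diaphragm and paired-end of 150 bases for somites and iBAT. The annotation was a GENCODE release curated at the Hox genes. The 2 deposited sets, 1 per sequencing centre, were fitted separately, and totals ran from 18369905 to 72991481 reads.

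Comparisons were fitted in R 4.3.3 with edgeR 4.0.16 (TMM scaling, quasi-likelihood test), and Benjamini-Hochberg adjustment ran over all genes whose TPM averaged 1 or more in a compared group. Calls needed an adjusted p under 0.05 and a fold of at least 1.5. Stages were tested in 1 fit of 4 groups per tissue (16 lung and 15 somite libraries), tissues in the 12 wt libraries at E15.5 or the 9 of iBAT and somites, genotypes within a context. The study describes its wt means as taken over 4 or, for iBAT, 5 embryos, as many as the libraries. Litters are not given in the sources used here, but the deposited iBAT column names start with 1 of 4 numbers shared between genotypes, 1 of them by replicates 4 and 5, whose meaning is not stated. Where embryos of 1 group share a litter the p-values may be too small. Where a litter is shared between the compared groups, p-values without a block may instead be too large. Alternatives were DESeq2 1.42.0, its size factors in edgeR, library totals only, a filter of 10 counts or none, no fold minimum, the replicate block, fits of the compared groups or of all libraries, TMM-scaled RPKM for levels, and each library left out. Leaving out replicate 3 of both diaphragm groups was added after seeing the data, also with a filter of 10 counts, as was a block by these iBAT numbers. The tests were also run on simulated data with known changes. Same-numbered libraries deviated together (every correlation over 0.1) for trachea and lung at E15.5 (0.263 to 0.608), mutant somite stages (0.144 to 0.262) and genotype in iBAT (0.132 to 0.458), and the block is an alternative there.

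The 8 genes, the gene lists and the marker lists were chosen with earlier results of these data known. The text names the 8 genes, of each list up to 3 called genes of largest rise and 3 of largest fall in wt lung and wt somites, and for each of the 8 the 3 protein-coding genes of highest Pearson r over the 14 group means. Sequences were read from GRCm39 with GENCODE vM39, and microRNAs from RefSeq. Between the sets 2573 gene names had another separator and were matched. Python 3.11.15 with numpy 2.4.6, pandas 2.3.3 and matplotlib 3.10.9 was used for summaries and figures.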

Additional observations from a re-analysis of the deposited data

Results flagged for a closer look

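Within 104 groups of 4 or 5 libraries, the level of 4 gene and group pairs held 1 library set apart from the rest by the gap test of Dixon, which by chance marks about 1 group in 20. *Lin28b* in wt diaphragm was at 2.69 TPM in replicate 3 and at most 0.833 TPM in the other 3, and that library also held the most hepatocyte transcripts of the wt diaphragm libraries. *Lin28b* in *Hoxa5*-/- lung at E12.5 was at 6.49 TPM in replicate 2, under 7.20 to 7.30 TPM in the others. *Igf2bp3* in *Hoxa5*-/- lung at E12.5 was at 48.8 TPM in replicate 1, the library with the highest erythroid sum, and at 57.5 to 59.0 TPM in the others. *Lin28a* in *Hoxa5*-/- iBAT was at 0.117 TPM in replicate 2, from 4 reads, and at most 0.0314 TPM in the others.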

How the results depend on the processing

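The counts of the 8 genes called kept their size within 1.5 times under every alternative run, except in diaphragm. Between diaphragm and trachea 3 were called, against 1 with library totals, 5 with a filter of 10 counts and 5 with no filter, which let *Lin28a* and *Trim71* be tested. Without replicate 3 of diaphragm it was 2, and 3 with a filter of 10 counts as well, where *Trim71* (adjusted p = 0.0715) and *Hmga1* (0.46, under the fold limit) were not called. Between genotypes in diaphragm the count was 1 with a filter of 10 counts, *Lin28a*. With library totals the split of all calls into higher and lower moved from 3071 and 3540 to 2131 and 5180 between diaphragm and trachea, from 3891 and 2944 to 3173 and 4629 between diaphragm and lung, and from 6002 and 6839 to 4102 and 10160 between iBAT and somites.

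Changes of sign were seen only for log2 fold changes that had missed the threshold. *Lin28b* in diaphragm against lung was at -0.018 without replicate 3 of diaphragm and at -0.016 with a filter of 10 counts as well, and *Igf2bp2* at -0.039 with library totals. In diaphragm against trachea, *Hmga2* was at -0.10 with library totals, and *Igf2bp2* at -0.25 with library totals, -0.0049 with no filter, -0.029 in a fit of these groups alone, -0.038 without replicate 3 of diaphragm and -0.053 with a filter of 10 counts as well. Between genotypes in the somites at E10.5 *Lin28b* was at -0.00057 with the replicate block. Of the values with 1 library left out, 24 of 352 between genotypes, 19 of 248 interactions and 5 of 778 between stages or tissues changed sign, and 0 of these were called. The cause of these changes was not tested.

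Leaving out 1 library at a time gave 7 to 8 calls for the stages in wt lung, 6 to 8 in mutant lung, 5 in wt somites and 7 to 8 in mutant somites. It gave 2 to 3 for trachea against lung, 2 for diaphragm against lung, 2 to 4 for diaphragm against trachea, 6 for iBAT against somites and 0 for each genotype comparison and interaction. Among single values, *Lin28b* in diaphragm against lung ran from -0.018 to 0.94, *Hmga2* in diaphragm against trachea from -0.030 to 0.45 and *Igf2bp2* there from -0.041 to 0.081. Between genotypes in the somites at E10.5, *Lin28a* ran from -0.040 to 0.69, *Lin28b* from -0.22 to 0.25 and *Trim71* from -0.12 to 0.40. The order of levels over contexts kept 51 to 56 of 56 positions.

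The fit with the replicate block changed no count of the 8 genes, with 7 and 7 called in wt and mutant lung, 5 and 7 in somites, 2, 2, 3 and 6 between tissues and 0 between genotypes. Over all genes it called 104 against 22 between genotypes in lung at E15.5 and 358 against 107 in diaphragm, but 4 against 14 in lung at E12.5, 1 against 3 in trachea and 0 against 4 in the somites at E10.5. In none of these contexts did every same-numbered pair deviate together. In iBAT it called 2 against 1, and also 2 with the block by the number in the column names, chosen after seeing the data.

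Of the 24 genes named as most alike, 12 were kept over the 7 wt means and 0 with rank correlation. Depth limits *Lin28a* outside the somites at E10.5 and all but *Hmga1* and the *Igf2bp* genes in iBAT. Whole tissues and unmeasured let-7 limit what the levels show of single cells or of the circuit.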
